A study of Homo sapiens with 20 samples.

Results

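Small nucleolar RNAs (snoRNAs) and their Cajal body relatives were followed in 5 lines of triple-negative breast cancer (TNBC), namely BT549, SUM149, MDA-MB-157, MDA-MB-231 and MDA-MB-468, either stimulated with post-surgery wound-healing fluids (WHFs) or left un-stimulated. Probes were selected on their annotated gene symbol, beginning with SNORD, SNORA or SCARNA, and on a detection p-value under 0.05 on at least 2 of the 20 arrays. Of 304 such probes among the 47319 on the Illumina beadchip, 198 were chosen by these values, for 197 genes. They were 100 SNORD, 80 SNORA and 18 SCARNA probes. The cells of every group had been starved of serum for 24 h. Stimulated cells then received a pool of fluids from breast cancer patients at a final concentration of 5% for 48 h, and un-stimulated cells did not. Each line and condition had 2 arrays, A and B, from independent replicates. The fluids were pooled, so the spread between the fluids of different patients was not measured. Per the methods a pool held 5 fluids and was made for each experiment. The methods do not say whether A and B received the same pool, so pool and replicate may not be separable.

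snoRNAs are short RNAs that work with proteins in the nucleolus. C/D box snoRNAs (SNORD) guide fibrillarin to add methyl groups to ribose in ribosomal RNA, and H/ACA box snoRNAs (SNORA) guide dyskerin to convert uridine into pseudouridine. SCARNAs guide the same modifications on spliceosomal RNAs in Cajal bodies. In human cells most of them lie in introns of a host gene and are cut out of its transcript, so that host and snoRNA share a promoter but not a fate. Many hosts are genes of ribosomal proteins or translation factors, and others are spliced noncoding RNAs of the SNHG family or GAS5. A few, such as U3 (SNORD3), which acts in the first cleavages of the ribosomal RNA precursor, and SNORD13, have promoters of their own.

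The members had 49 probes with a ribosomal protein host, 92 with another protein host, 51 with a noncoding host, 4 with their own promoter and 2 (SNORA57 and SNORD32B) with no host named. Many ribosomal protein and snoRNA host genes begin at a C followed by a run of pyrimidines, known as the 5′ terminal oligopyrimidine tract. The start windows of 9 hosts with members described in detail are shown for that reason, chosen for those members and not as a sample of all hosts, each with 15 bases before and 15 from the annotated start (RefSeq, GRCh38.p14). Capitals mark the unbroken run of C and T from the annotated start, and a window without capitals has none that begins with C.
SNHG32, host of SNORD48, chr6:31834901-31834930, plus strand: ctcgccattttagttCTTTTTgcgaagtgg
TAF1D, host of SNORA8, chr11:93741481-93741510, minus strand: acggaaatagccaacCCTTTTCTTCCgcac
RPS12, host of SNORD100, chr6:132814554-132814583, plus strand: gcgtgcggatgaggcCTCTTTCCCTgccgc
SNHG12, host of SNORA61, chr1:28581859-28581888, minus strand: tcgcggcttcagcgcCCTTTCTCCCCgccg
HSPA8, host of SNORD14D, chr11:123062122-123062151, minus strand: cgggcggaaaccggtCTCattgaactcgcc
DKC1, host of SNORA56, chrX:154762849-154762878, plus strand: gggcagtgcgcgggtgggtgggtcctagca
VPS13D, host of SNORA59A, chr1:12230015-12230044, plus strand: cgggtcggggccggcCTgagcgccgcgggc
CEP295, host of SCARNA9, chr11:93661667-93661696, plus strand: ggctctcccgcaggcgcagaaacggctgct
CHD8, host of SNORD8, chr14:21437261-21437290, minus strand: gcgggcaggagcatcaggttaggttgcgca
A C at the annotated start followed by at least 4 pyrimidines was found in 30 of the 96 hosts with a start window (31.3%), against 5.14% of 27305 genes. It was found in 14 of 18 ribosomal protein hosts, 11 of 60 other protein hosts and 5 of 18 noncoding hosts. A match describes the letters at an annotated start, and annotated starts can lie some bases from the start used in a cell.

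The sequences of whole snoRNAs were not used here, but in 3 members an annotated microRNA hairpin covers the 3′ end, so that part of the member itself can be shown. H/ACA RNAs owe their name to an ACA that sits close to the 3′ end, and it is in capitals.
SNORA84 (MIR3651, chr9:92292461-92292547, minus strand, 87 of 133 bases): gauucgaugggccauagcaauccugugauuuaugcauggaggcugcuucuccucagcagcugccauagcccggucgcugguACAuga
SCARNA16 (MIR6516, chr17:77089417-77089493, plus strand, 77 of 187 bases): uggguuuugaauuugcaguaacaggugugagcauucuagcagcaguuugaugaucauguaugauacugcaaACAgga
SCARNA3 (MIR1843, chr1:175968397-175968479, minus strand, 83 of 144 bases): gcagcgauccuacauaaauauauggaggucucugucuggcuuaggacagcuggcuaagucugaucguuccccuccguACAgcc
In all 3 the ACA lay 3 bases before the end, an ending found in 1.79% of 1562 annotated hairpins. Their probes changed by 0.35, 0.28 and 0.00 on the log2 scale over the 5 lines. None of these changes passed the test over the lines, while SNORA84 rose in BT549 (log2 change 1.05, SE 0.42, adjusted p = 0.0763) and SCARNA16 rose in SUM149 (log2 change 1.02, adjusted p = 0.00369) in limma's fit of all lines.

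Between 137 and 175 of the members were detected on an array, and 98 were detected on all 20. The array most similar to each array was the other replicate of its own group for 20 of 20. Signals are bead intensities, corrected for background, normalised between arrays and put on the log2 scale, so a difference of 1 is a 2-fold change. They can be compared for one probe across arrays but not between probes. The RNA was amplified by a kit that primes on poly(A), which mature snoRNAs lack, and cleaned on columns, and a probe does not tell a mature snoRNA from its precursor or from host RNA that holds the same bases. Near-identical copies such as SNORD14C and SNORD14D, or SNORD3A, SNORD3C and SNORD3D, can share signal. In these bulk RNA samples, fewer cells that express a gene and less RNA per cell cannot be told apart. MDA-MB-231 was alone on its chip, MDA-MB-468 and SUM149 shared a chip, and so did BT549 and MDA-MB-157, so that each line's stimulated and un-stimulated arrays were always on the same chip. Of the markers of the labelled cells, VIM changed by -0.42 on both of its probes, KRT8 by -0.39, KRT5 by -0.71 and ERBB2 by -0.03, and KRT18 by -0.34 and 0.11 on its 2 probes. CDH1, ESR1 and PGR were detected on too few arrays to be tested. In single lines, VIM fell in MDA-MB-468 (log2 change -1.49 and -1.65), KRT5 fell there (-1.79) and in BT549 (-1.20), and KRT8 fell in MDA-MB-157 (-1.28). Per the methods the fluids were spun down and, once diluted, filtered before they met the cells. Of markers for cells of a wound, the monocyte marker CD14 changed by 0.85 and 1.02 on its 2 probes and the plasma protein gene ALB by 0.31. None of these was called over the lines, but CD14 rose in SUM149 (2.41 and 2.87) and in MDA-MB-468 (1.49 and 1.85). Its changes in BT549 were 0.01 and -0.29. Among the others, PTPRC, CD3E and HBA1 were detected on 0 arrays and HBB on 1. The part of CD14 and ALB in the snoRNA values was not tested.

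At the edge of the detection rule, the 7 members detected on exactly 2 arrays reached a highest bead signal of 161 to 185, and the 17 probes detected on exactly 1 array, which were left out, reached 136 to 182. A further 89 probes were detected on none. Of the 198 members, 47 were detected on 2 to 9 arrays and were not tested. Of these, 28 were detected on more WHF arrays than un-stimulated arrays (59.6%, against 28.5% of all 8362 probes detected on 2 to 9 arrays), 9 on fewer (19.1%, against 38.8%) and 10 on equal numbers. In BT549, 14 of the 198 members were detected on both WHF arrays and on neither un-stimulated array (7.07%, against 1.56% of the 29551 probes detected on at least 2 arrays), and 0 were the other way round (against 2.68%). Detection also chose the members, so these counts are a description.

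The first question was whether snoRNAs changed with WHFs in all lines together. Members detected, at p under 0.05, on 10 or more arrays were tested, 151 in all, in a limma fit with the line as a block, which was run over all 21189 probes that met this criterion. Of the 151, 136 had a higher mean with WHFs (90.1%, against 51.7% of all tested probes), with a median log2 change of 0.38 against 0.01. A probe can pass the filter through its stimulated arrays. Among the 98 members detected on all 20 arrays, which pass it in either condition, 90 had a higher mean and the median was 0.40, against 0.02 for the 13478 probes detected on all arrays. No member was called at an adjusted p under 0.1 (0 of 151, against 0.0755% of all tested probes). At an unadjusted p under 0.05, 71 were higher, against 9.32% of all tested probes, and 1 was lower. The lowest adjusted p was 0.120, for SNORA59A in a tie with others, C/D members among them. When the 10 pairs of line and replicate letter were the block, 69 members were called higher and 1, SNORD8, lower. That model also called more probes in general, 2626 of them higher and 2743 lower. It counts the 2 replicates of a line as separate units, 10 pairs for 5 lines. Its p-values can thus be too small for a statement over lines, and those given below are a description. A higher value in 10 of 10 pairs was found for 18 members (11.9%, against 2.94%), and both WHF arrays lay above both un-stimulated arrays in all 5 lines for 9 members (5.96%, against 1.48%). Those 9 were SNORD21, SNORD38A, SNORA59A, SNORD68, SNORA18, SNORD25, SNORA64, SNORD36A and SNORA70.

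The size of the shift differed between the replicate sets. The median change of the tested members was 0.27 in the A arrays and 0.54 in the B arrays. By line, A and B medians were 0.21 and 0.50 in MDA-MB-231, 0.54 and 0.95 in BT549, 0.23 and 0.10 in MDA-MB-157, 0.13 and 1.01 for SUM149, and 0.21 and 0.06 for MDA-MB-468. All 10 medians were above 0, and the SUM149 pair was the widest apart. On the SUM149 arrays the median level of the tested members was 7.38 and 7.04 without WHFs and 7.49 and 8.30 with WHFs, so that only the B array stood clearly above both un-stimulated arrays.

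**Figure D1:**
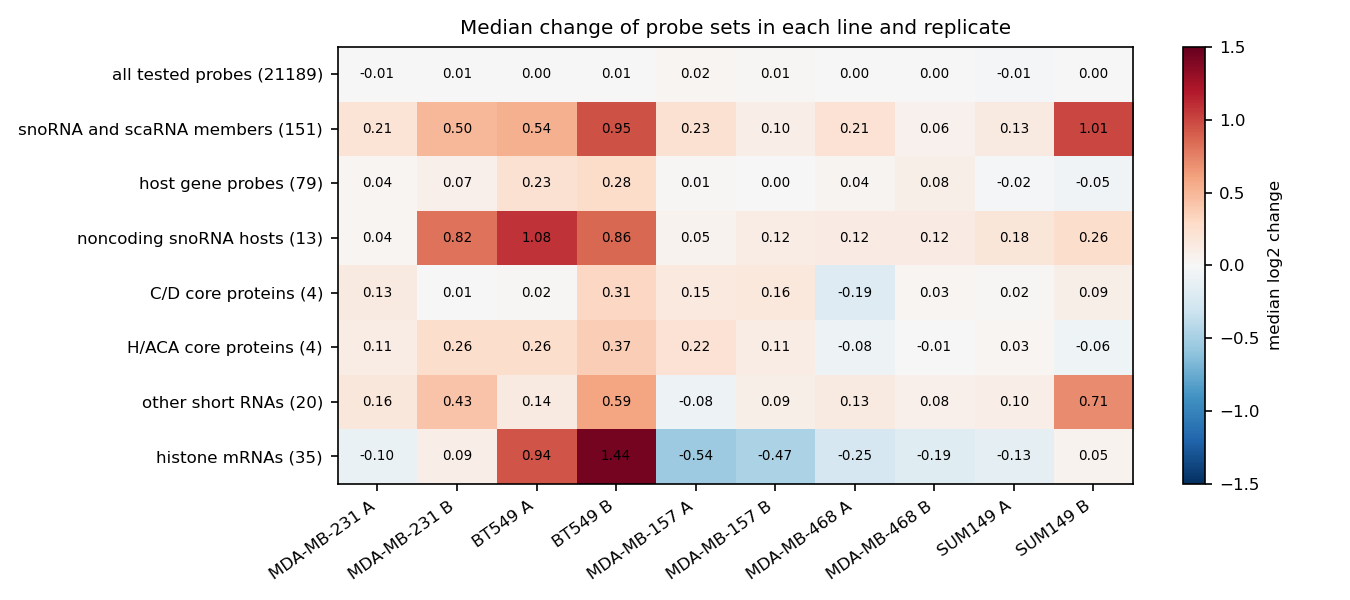
Median log2 change (WHF minus un-stimulated) of 8 probe sets, one row per set, in each line and replicate letter, as colour and printed value. The row of snoRNA and scaRNA members is above 0 for all 10 pairs, with the highest median, 1.01, in SUM149 B and the lowest, 0.06, in MDA-MB-468 B.

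C/D box and H/ACA box members had nearly the same median change over the lines. Of 75 tested C/D members, 70 had a higher mean, with a median of 0.42, and of 65 H/ACA members 58 did, with a median of 0.38. The difference of the medians was 0.035, against set medians of 0.31 and 0.56 for C/D and 0.23 and 0.54 for H/ACA in A and B, so that the boxes lay closer together than the replicates of either. Within lines the C/D and H/ACA medians were 0.51 and 0.39 in MDA-MB-231, 0.87 and 0.64 in BT549, 0.59 and 0.55 in SUM149, 0.20 and 0.16 in MDA-MB-157, and 0.19 and 0.10 in MDA-MB-468. C/D was the higher of the pair each time. Members are not replicates and this order was not tested. The 11 tested SCARNAs had a median of 0.19 and 8 of them had a higher mean. Their medians were -0.07 in MDA-MB-231, 0.32 in BT549, 0.39 in SUM149, -0.09 in MDA-MB-157 and 0.27 in MDA-MB-468.

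**Figure D2:**
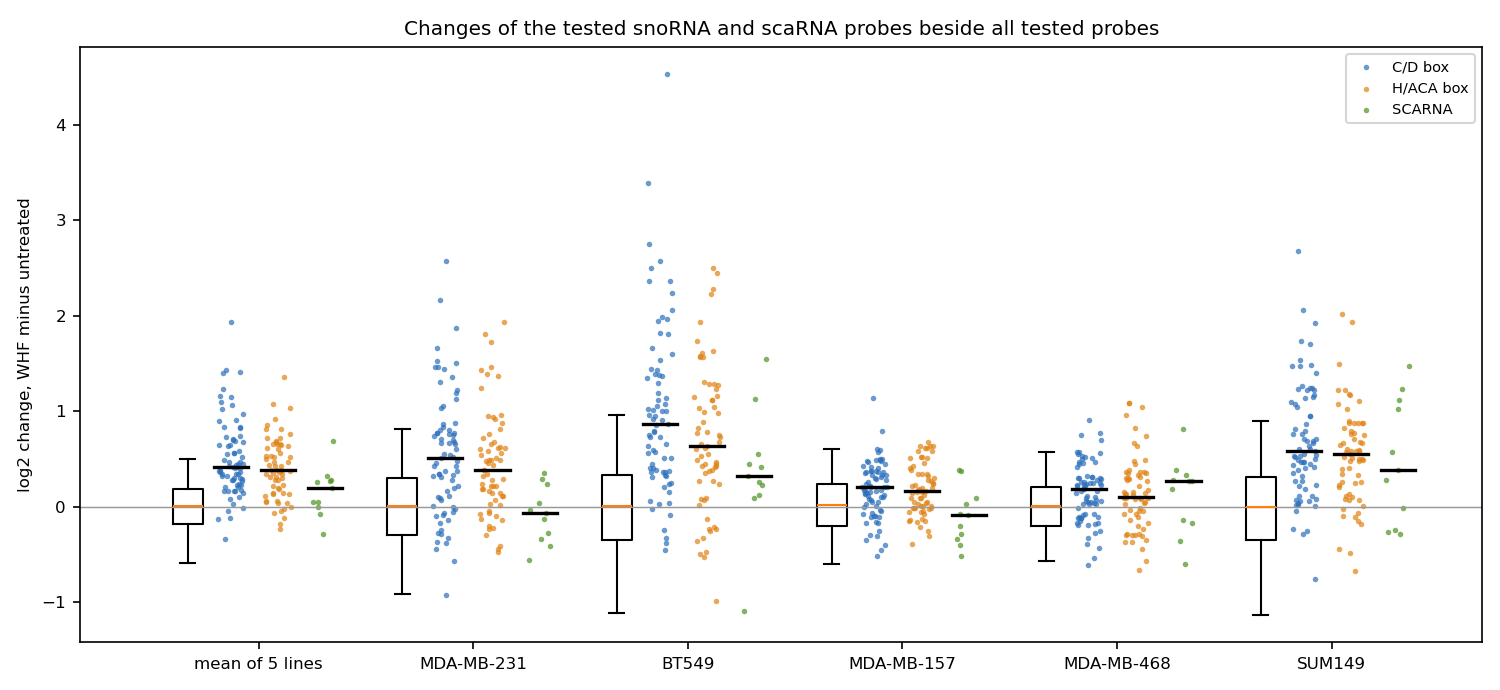
Log2 change (WHF minus un-stimulated) for the mean of the 5 lines and for each line. Grey boxes give the 5th, 25th, 50th, 75th and 95th percentiles of all 21189 tested probes, points are the C/D, H/ACA and SCARNA members and black bars their medians, which for C/D and H/ACA lie between 0.64 and 0.87 in BT549 and between 0.10 and 0.20 in MDA-MB-157 and MDA-MB-468.

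The single lines were compared next, in 1 limma model with 10 groups, each of 2 arrays, that shares 1 estimate of the spread, with a call at an adjusted p under 0.1 and more than 2-fold. In BT549, 56 of 151 members rose (37.1%, against 4.53% of all tested probes), 32 C/D, 22 H/ACA and 2 SCARNA. Only SCARNA9 fell there (1 of 151, against 6.37% of all tested probes called lower). In SUM149, 34 rose (22.5%, against 3.90%), and in MDA-MB-231, 21 rose (13.9%, against 2.80%), 13 C/D and 8 H/ACA. In MDA-MB-468, 2 rose, SNORA59A and 1 of the 2 SNORA73B probes (1.32%, against 0.826%), a share near the background. In MDA-MB-157 none was called (0 of 151, against 1.03%), and 8 had an unadjusted p under 0.05 (5.30%, against 18.8% of all tested probes). The SUM149 count rested on the B array: it was 7 without the WHF B array and 63 without the WHF A array. The BT549 and SUM149 counts were 29 and 17 on the authors' normalised intensities, which carry no background correction.

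Of the 151, 79 were called higher in no line, 42 in 1, 19 in 2 and 11 in 3. The 11 were SNORA56, SNORA59A, SNORA8, SNORD10, SNORD14D, SNORD21, SNORD38A, SNORD48, SNORD59A, SNORD69 and SNORD80. MDA-MB-231 and BT549 shared 17 called members, 81.0% of the 21 and 30.4% of the 56, and BT549 and SUM149 shared 22, 39.3% of the 56 and 64.7% of the 34. The largest of the 5 line changes fell in BT549 for 75 members, and the smallest in MDA-MB-468 for 55 and in MDA-MB-157 for 41. These counts and overlaps were not made over all tested probes, so they only describe the members. Among all tested probes, too, BT549, SUM149 and MDA-MB-231 had the most calls of a rise (4.53%, 3.90% and 2.80%). An F test of the interaction between line and treatment, at an adjusted p under 0.1, found a response that differed between lines for 55 members (36.4%, against 41.1% of all tested probes), a share below the background.

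SNORD48 is a C/D box snoRNA, often used as a reference for normalising small RNA assays, that lies in the noncoding host SNHG32 (chr6:31835263-31835326). In MDA-MB-231 its log2 intensity was 7.79 and 7.36 without WHFs and 10.47 and 9.83 with WHFs. In BT549 the values were 7.53 and 7.27 without and 8.73 and 8.22 with WHFs, and for SUM149 8.33 and 7.96 without and 8.89 and 9.87 with WHFs. In these 3 lines both stimulated arrays lay above both un-stimulated arrays. In MDA-MB-468 they were 7.92 and 7.49 without and 8.87 and 7.92 with WHFs, and the lower stimulated value barely cleared the higher un-stimulated one. In MDA-MB-157 they were 7.18 and 7.17 without and 7.74 and 6.95 with WHFs, and the groups overlapped. SNORD48 rose in MDA-MB-231 (5.97-fold, log2 change 2.58, SE 0.37, adjusted p = 0.000309), in SUM149 (2.35-fold, adjusted p = 0.0234) and in BT549 (2.11-fold, adjusted p = 0.0409). Over the lines its mean change was 1.15 (SE 0.30, adjusted p = 0.156), and with the pairs as a block the adjusted p was 0.0123. Its response differed between lines (adjusted p = 0.0217).

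The SNHG32 probes gave different pictures of the host. The brighter probe changed by 0.20 (SE 0.16), and SNORD48 exceeded it in 5 of 5 lines by a mean of 0.95 (SD 0.91, n = 5, exact sign-flip permutation test, two-sided p = 0.063, the smallest that 5 lines allow). The dimmer probe, detected on 17 arrays, changed by 0.87 (SE 0.14), and SNORD48 exceeded it in only 2 of 5 lines, by a mean of 0.28 (SD 0.77, n = 5, same exact permutation test, p = 0.625). The comparison of SNORD48 with its host therefore turned on the probe. SNORD48 was also chosen with earlier results of these data known, so both p-values are only a description. SNORD52, the other tested snoRNA of SNHG32 (chr6:31837076-31837139), changed by 0.18 (SE 0.12, adjusted p = 0.453), and was called in no line. In MDA-MB-231, where SNORD48 changed most, SNORD52 read 7.54 and 7.26 without and 7.28 and 7.24 with WHFs.

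SNORD14D, a C/D box snoRNA in an intron of HSPA8, the gene of a constitutive heat shock chaperone, had the largest mean change of all members. It lies at chr11:123058909-123058995. In BT549 it read 6.69 and 6.77 without WHFs and 10.37 and 12.17 with WHFs. In MDA-MB-231 it read 8.48 and 7.57 without and 10.66 and 9.73 with WHFs. In MDA-MB-157 it read 5.56 and 5.31 without and 6.54 and 6.60 with WHFs. The groups were apart in these 3 lines, and the BT549 replicates were themselves far apart after stimulation. In SUM149 the values were 7.03 and 6.74 without and 7.41 and 10.21 with WHFs, a change carried mostly by the B array. In MDA-MB-468 they were 8.36 and 8.67 without and 8.52 and 8.29 with WHFs, and overlapped. SNORD14D rose in BT549 (23.2-fold, log2 change 4.53, SE 0.67, adjusted p = 0.000164), MDA-MB-231 (4.5-fold, adjusted p = 0.0343) and SUM149 (3.81-fold, adjusted p = 0.0458). The MDA-MB-157 change of 1.13 was not called (adjusted p = 0.390). Over the lines it was 1.93 (SE 0.55, adjusted p = 0.162, and 0.0195 with the pairs as a block).

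Its host showed no such rise. The brighter HSPA8 probe changed by -0.28 over the lines (SE 0.21), and the line values were -0.41 in MDA-MB-231, 0.14 in BT549, 0.35 in MDA-MB-157, -0.33 in MDA-MB-468 and -1.14 in SUM149. SNORD14D exceeded it in 5 of 5 lines by a mean of 2.21 (SD 1.70, n = 5, exact sign-flip permutation test, two-sided p = 0.063). Against the second HSPA8 probe the mean was 2.18 (SD 1.68, n = 5, same exact permutation test, p = 0.063). SNORD14D was chosen with earlier results of these data known and has the largest mean change. These p-values therefore only describe the difference from its host. SNORD14C, a near-identical copy in the same gene (chr11:123059335-123059422), changed by 1.41 (SE 0.41, adjusted p = 0.163) and rose 10.5-fold in BT549 (log2 change 3.39, adjusted p = 0.00158), where it read 7.70 and 7.92 without and 10.30 and 12.10 with WHFs. The B array was again the higher of the stimulated pair.

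**Figure D3:**
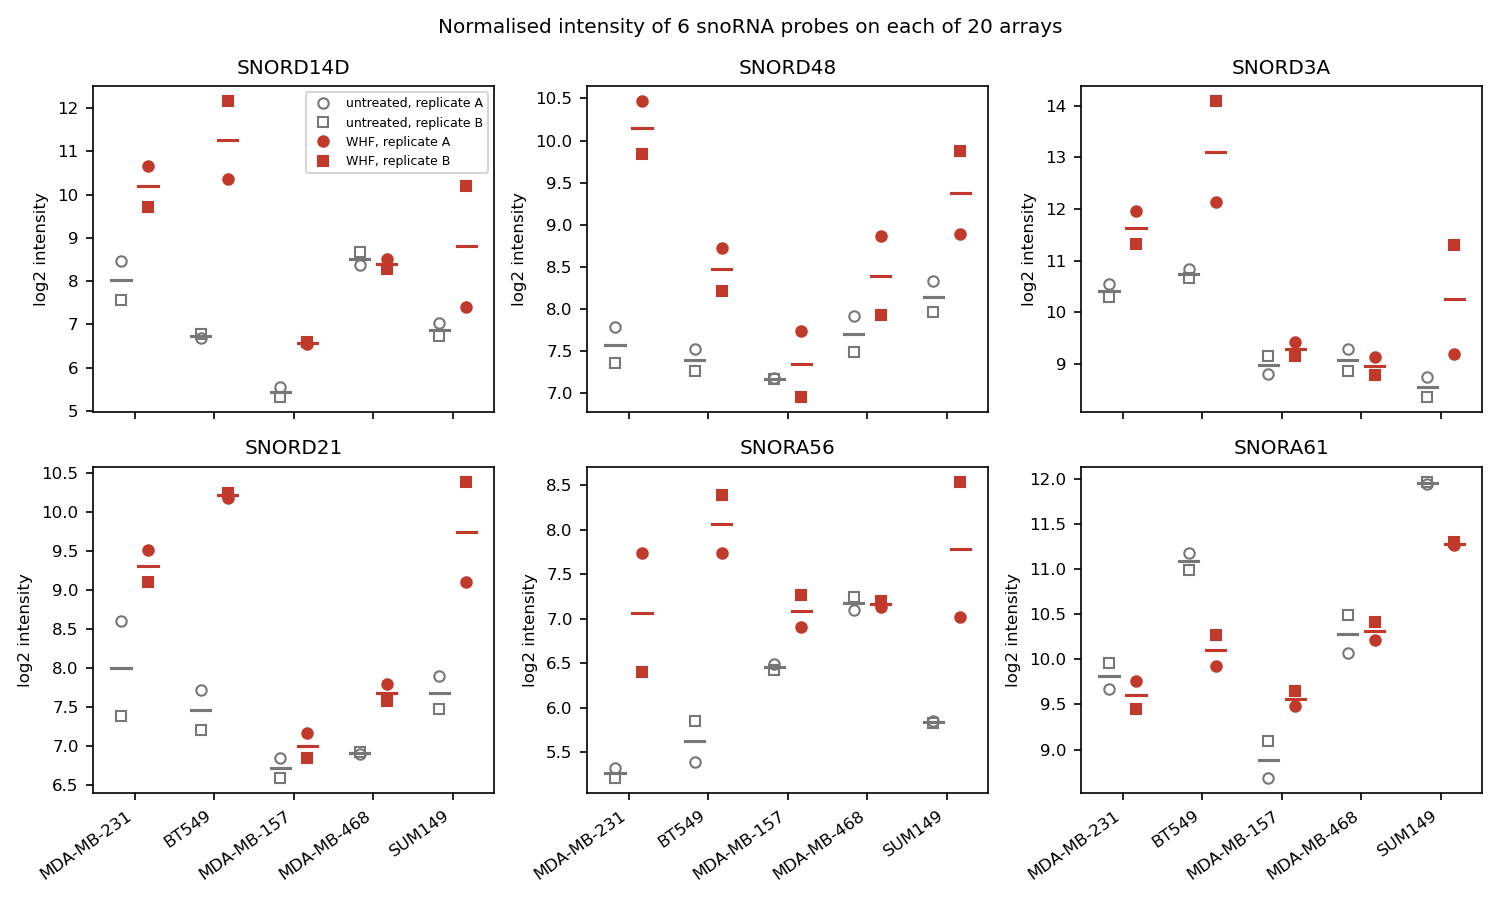
Log2 intensity of SNORD14D, SNORD48, SNORD3A, SNORD21, SNORA56 and SNORA61 on each of the 20 arrays, by line. Circles are replicate A and squares replicate B, open grey symbols un-stimulated and filled red symbols WHF arrays, and bars are means of 2; SNORD14D in BT549 goes from 6.69 and 6.77 to 10.37 and 12.17, and SNORA61 in BT549 from 11.18 and 10.99 to 9.92 and 10.27.

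Of the C/D members with ribosomal protein hosts, SNORD21, in an intron of RPL5 (chr1:92837289-92837383), changed most, with 1.44 over the lines (SE 0.33, adjusted p = 0.145). Its values in BT549 were 7.71 and 7.20 without and 10.17 and 10.24 with WHFs. In MDA-MB-231 they were 8.60 and 7.37 without and 9.50 and 9.10 with WHFs, and for SUM149 7.89 and 7.47 without and 9.10 and 10.38 with WHFs. SNORD21 rose in all 3, by 6.73-fold in BT549 (adjusted p = 0.0001), 4.17-fold in SUM149 (adjusted p = 0.00118) and 2.48-fold in MDA-MB-231 (adjusted p = 0.0262). In MDA-MB-468 it read 6.89 and 6.92 without and 7.79 and 7.57 with WHFs, and in MDA-MB-157 6.84 and 6.58 without and 7.16 and 6.85 with WHFs. The stimulated arrays were above the un-stimulated ones in these lines as well, in MDA-MB-157 only just, with no call in either. The RPL5 probe changed by 0.08.

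RPS12 carries 3 tested members of both boxes in its introns. SNORD100 (chr6:132816802-132816877) read 6.82 and 6.58 without and 9.12 and 9.28 with WHFs in BT549, where it rose 5.67-fold (log2 change 2.50, SE 0.31, adjusted p = 4.03e-05). The H/ACA member SNORA33 read 7.78 and 7.49 without and 9.76 and 10.08 with WHFs there and rose 4.87-fold (adjusted p = 0.000108). Neither was called in another line. Over the lines the changes were 1.06 for SNORD100, 0.91 for SNORA33 and 0.55 for SNORD101, against 0.03 for the RPS12 probe.

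U3, encoded by several near-identical genes, was read by 3 probes, and all had higher means. SNORD3A (chr17:19188016-19188232) read 10.84 and 10.66 without and 12.13 and 14.10 with WHFs in BT549, and 8.74 and 8.35 without and 9.19 and 11.31 with WHFs in SUM149. In both lines the B array was well above the A array after stimulation, and SNORD3A rose in both, 5.16-fold (adjusted p = 0.00619) and 3.26-fold (adjusted p = 0.0401). In MDA-MB-231 it read 10.54 and 10.30 without and 11.96 and 11.33 with WHFs (log2 change 1.22, adjusted p = 0.156). In MDA-MB-468 the values were 9.29 and 8.86 without and 9.13 and 8.78 with WHFs, and for MDA-MB-157 8.81 and 9.15 without and 9.43 and 9.15 with WHFs, with little or no separation. Over the lines the changes were 1.10 for SNORD3A, 1.40 for SNORD3C and 0.98 for SNORD3D, with adjusted p from 0.168 to 0.173. SNORD13, the other member with a promoter of its own, which guides acetylation of ribosomal RNA, changed by -0.12 (adjusted p = 0.779). It read 12.30 and 11.83 without and 11.09 and 11.18 with WHFs in MDA-MB-231, the line where it changed most (-0.93, adjusted p = 0.103).

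Among the H/ACA members, SNORA56 had the largest mean change, 1.36 (SE 0.34, adjusted p = 0.153). It lies in DKC1 (chrX:154774998-154775126), the gene of dyskerin itself. SNORA56 read 5.39 and 5.85 without and 7.74 and 8.39 with WHFs in BT549, 5.32 and 5.20 without and 7.73 and 6.40 with WHFs in MDA-MB-231, and 5.85 and 5.83 without and 7.02 and 8.54 with WHFs in SUM149. It rose in each of these, by 5.46-fold, 3.50-fold and 3.83-fold (adjusted p = 0.000547, 0.00787 and 0.0035). SNORA56 was detected on 10 WHF arrays but on only 7 un-stimulated arrays. Its lowest un-stimulated values lie near background, where the size of a fold change also depends on the background correction. In MDA-MB-157 it read 6.48 and 6.42 without and 6.91 and 7.27 with WHFs (adjusted p = 0.456). MDA-MB-468 had the highest un-stimulated level, 7.10 and 7.25, and nearly the same with WHFs, 7.13 and 7.19. The DKC1 probe changed by 0.07.

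SNORA59A, in an intron of VPS13D (chr1:12507246-12507397), had the smallest spread between lines relative to its change, 1.04 with an SE of 0.17. Its log2 changes were 1.61 in BT549, 1.23 in SUM149, 1.08 in MDA-MB-468, 0.68 in MDA-MB-231 and 0.59 in MDA-MB-157, and it was higher in 10 of 10 pairs. Its values were 7.37 and 7.30 without and 8.85 and 9.04 with WHFs in BT549, 7.69 and 7.66 without and 8.70 and 9.10 with WHFs in SUM149, and 7.52 and 7.05 without and 8.30 and 8.43 with WHFs in MDA-MB-468. In MDA-MB-231 they were 6.20 and 6.24 without and 7.06 and 6.73 with WHFs, and in MDA-MB-157 8.48 and 8.73 without and 9.05 and 9.35 with WHFs. The groups were apart in every line, and the change was called as over 2-fold in BT549, SUM149 and MDA-MB-468.

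TAF1D, a gene for a subunit of the RNA polymerase I selectivity factor, which recruits the enzyme that makes ribosomal RNA, held 6 tested members, all higher. They were SNORA8 (1.08), SNORA18 (0.85), SNORA25 (0.68), SNORA32 (0.64), SNORA1 (0.50) and SNORD6 (0.44), and here the host moved too, by 0.63 (SE 0.22) on its brighter probe and 0.91 (SE 0.30) on the other. SNORA8 (chr11:93732361-93732499) read 9.18 and 9.10 without and 11.30 and 10.85 with WHFs in MDA-MB-231, 9.15 and 9.08 without and 10.89 and 10.83 with WHFs in BT549, and 8.98 and 9.18 without and 9.93 and 10.60 with WHFs in SUM149. It rose 3.84-fold, 3.34-fold and 2.27-fold (adjusted p = 4.56e-05, 4.40e-05 and 0.00117). In MDA-MB-157 it read 8.35 and 8.65 without and 8.77 and 8.58 with WHFs, and the MDA-MB-468 values were 8.16 and 8.61 without and 8.71 and 8.76 with WHFs, with no call. The brighter TAF1D probe changed by 1.15 in MDA-MB-231, 1.38 in BT549, 0.46 in SUM149, 0.22 in MDA-MB-157 and -0.04 in MDA-MB-468, the lines with a large snoRNA change being those with a large host change.

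Members with lower means were few. SNORD8, in an intron of CHD8, had the lowest, -0.34 (SE 0.11, adjusted p = 0.187, and 0.0403 with the pairs as a block), and its line changes ran from -0.46 to -0.17. The CHD8 probe changed by -0.50. SCARNA9, in CEP295 (chr11:93721514-93721866), changed by -0.28 over the lines (SE 0.25). It fell in BT549, from 10.76 and 10.44 to 9.89 and 9.14 (log2 change -1.09, SE 0.44, adjusted p = 0.0805), and in MDA-MB-468 it read 7.48 and 7.38 without and 8.91 and 7.59 with WHFs (log2 change 0.81, adjusted p = 0.387). SNORA61, an H/ACA snoRNA of SNHG12 (chr1:28579764-28579893), took opposite directions in different lines. It read 11.18 and 10.99 without and 9.92 and 10.27 with WHFs in BT549 (log2 change -0.99, SE 0.20, adjusted p = 0.00168, just short of 2-fold), and 11.93 and 11.96 without and 11.26 and 11.30 with WHFs in SUM149 (-0.67, adjusted p = 0.0217). The other direction was seen in MDA-MB-157, with 8.68 and 9.09 without and 9.48 and 9.65 with WHFs (0.68, adjusted p = 0.0598). In MDA-MB-231 it read 9.67 and 9.96 without and 9.76 and 9.45 with WHFs, and the MDA-MB-468 values were 10.07 and 10.49 without and 10.22 and 10.41 with WHFs, where the groups overlapped. The F test found its response to differ between lines (adjusted p = 0.00305). The SNHG12 probe changed by 1.48 in BT549, opposite to SNORA61, and by 0.47 over the lines.

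The host genes were then compared with their snoRNAs. Hosts were named for 192 members, 122 genes in all, and 119 tested members had a tested probe of their host, from 79 hosts. The member changed more than its host probe in 93 of 119 (78.2%), with medians of 0.39 and 0.10 and a median difference of 0.25. For ribosomal protein hosts this was so for 34 of 34 members (medians 0.46 and 0.11), for other protein hosts for 47 of 60 (0.35 and 0.01), and for noncoding hosts for 12 of 25 (0.31 and 0.32). The median change of the noncoding hosts was thus as large as that of the snoRNAs they carry, while that of the protein-coding hosts was smaller. By box the counts were 50 of 57 C/D, 38 of 53 H/ACA and 5 of 9 SCARNA members. Members of one host share its transcript and probe, and the counts carry no test. The median of all tested probes was 0.01, also below that of the members. How often a member exceeds a probe other than its host's was not counted, so these shares are not particular to hosts. The 79 host probes, one per host, had a median of 0.05, and 54 were higher. The 48 members whose host has the pyrimidine tract shown above had a median of 0.41, with 46 higher, and the 67 whose host lacks it had a median of 0.34, with 57 higher. Most ribosomal protein hosts have the tract, so this comparison mixes tract and host class. With ribosomal protein hosts left out, the medians were 0.37 for 25 members with the tract and 0.34 for 61 without.

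**Figure D4:**
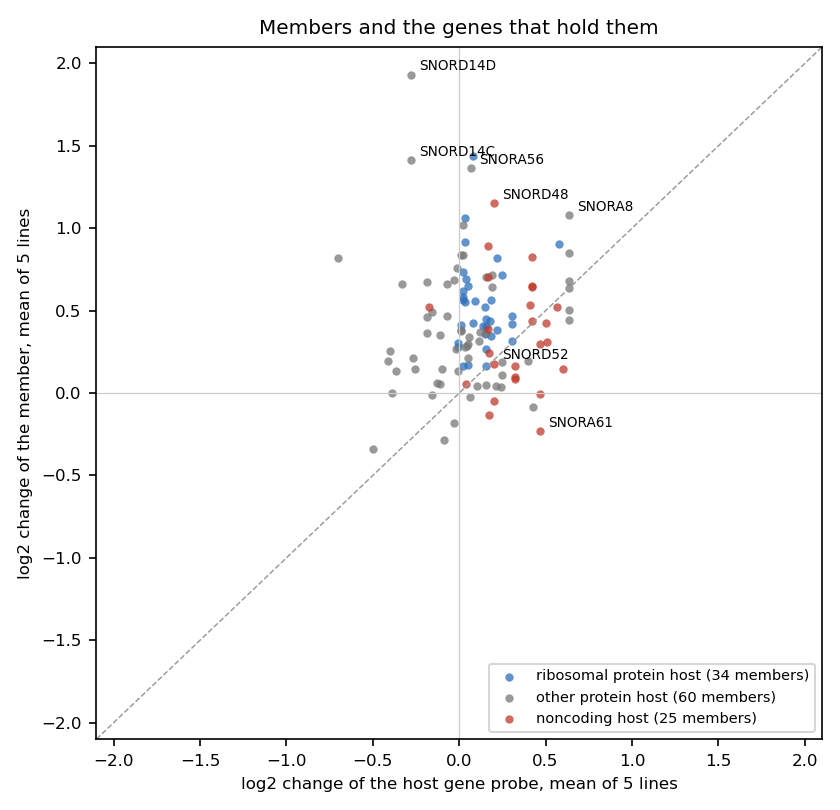
Log2 change over the 5 lines of 119 members (vertical) against that of the brightest tested probe of their host (horizontal), for ribosomal protein, other protein and noncoding hosts. Points above the dashed line of equal change are 34 of 34, 47 of 60 and 12 of 25.

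Within a host the members did not all change alike. SNORD48 (1.15) and SNORD52 (0.18) of SNHG32 differed most clearly, and in RPL3 the changes were 0.74 for SNORD83B, 0.56 for SNORD139 and 0.17 for SNORD43. EIF4A1 held SNORD10 (0.84), SNORA48 (0.38) and SNORA67 (0.38). In other hosts the values lay close together, as in SNHG3 (0.34 to 0.39), RPL23A (0.32 to 0.47) and ZFAS1 (0.08 to 0.16). NOP56, the gene of a C/D core protein, had 3 tested members with changes of 0.37, 0.46 and 0.67 and a host probe at -0.19. The members of GAS5, SNORD76 (0.70) and SNORD80 (0.89), exceeded its probe (0.17).

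**Figure D5:**
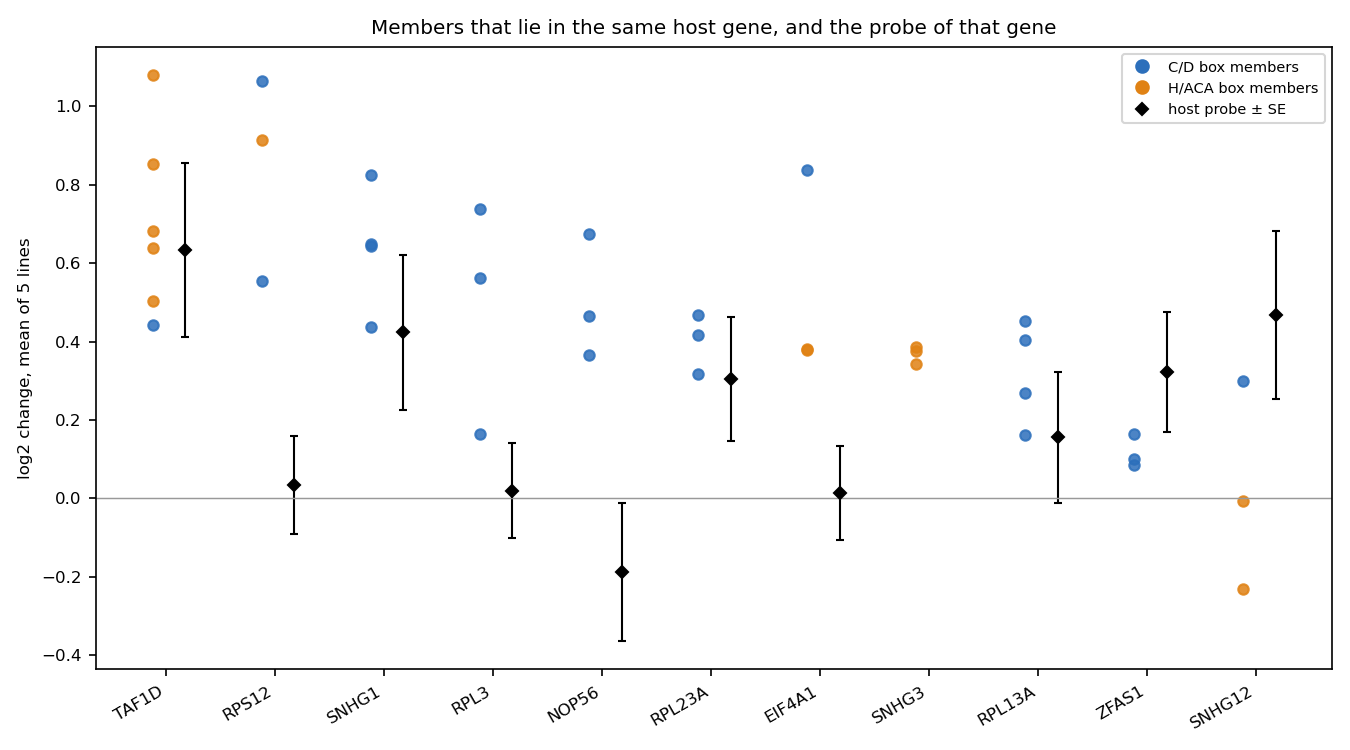
Log2 change over the 5 lines of each tested member in hosts with at least 3 tested members, one column per host, in blue for C/D and orange for H/ACA. Diamonds with bars are the host probe ± SE, absent for SNHG3, which had no tested host probe; the 6 members of TAF1D lie between 0.44 and 1.08, and the 3 of ZFAS1 between 0.08 and 0.16.

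In some members the size or direction of the change differed widely between lines. SNORA28, in EIF5, rose in BT549 from 7.21 and 6.61 to 9.08 and 9.76 (log2 change 2.50, adjusted p = 7.73e-05) and in SUM149 (1.11, adjusted p = 0.0255). SNORA28 read 8.56 and 7.95 without and 8.06 and 7.68 with WHFs in MDA-MB-157. Its host probe changed by -0.70 over the lines, and by -1.61 in SUM149, where the snoRNA rose. SNORA77, in ATP2B4, rose in SUM149 from 5.30 and 5.70 to 7.10 and 7.95 (2.02, adjusted p = 0.00037) and in MDA-MB-231 from 5.48 and 5.84 to 7.96 and 6.82 (1.73, adjusted p = 0.00193). In BT549, the line with the most called members, SNORA77 read 7.26 and 7.11 without and 6.63 and 7.02 with WHFs. It was detected on 10 WHF arrays and on 8 un-stimulated arrays. SNORD139 of RPL3 rose in BT549 from 6.39 and 5.70 to 8.39 and 8.18 (2.24, adjusted p = 4.67e-05), while its MDA-MB-468 change was -0.61 (adjusted p = 0.288). For all 3 the response differed between lines by the F test (adjusted p = 0.00329, 0.00178 and 0.0011).

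Un-stimulated levels differed between lines for 118 of 151 members (78.1%, against 86.9% of all tested probes). Line and chip cannot be told apart in that test, and within a chip 55 members differed between MDA-MB-468 and SUM149 (36.4%, against 56.7%) and 66 between BT549 and MDA-MB-157 (43.7%, against 58.1%). All 3 shares were below those of all tested probes. SNORA12, in CWF19L1, was the clearest case. It read 10.89 and 10.72 in un-stimulated MDA-MB-231 and from 5.31 to 7.60 on the other 8 un-stimulated arrays (adjusted p = 6.79e-09).

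The genes of the proteins that bind snoRNAs had small changes. With 1 probe per gene, 2 of 4 C/D core proteins (FBL, NOP56, NOP58, SNU13) had a higher mean, with a median of 0.00, although another SNU13 probe changed by 0.60 (adjusted p = 0.142). FBL, the methyltransferase, changed by 0.28. All 4 H/ACA core proteins (DKC1, NHP2, NOP10, GAR1) were higher, with a median of 0.13. Of 15 assembly and maturation factors 9 were higher (median 0.06), and of 15 genes of the small subunit processome and nucleolus 11 were (median 0.19). The lines differed. Medians of the processome and nucleolus genes were 0.40 in BT549, 0.28 in MDA-MB-157, 0.24 in MDA-MB-231, -0.10 in MDA-MB-468 and -0.32 in SUM149. In SUM149, 4 of these 15 were higher, as were 5 of the 15 assembly factors (median -0.15). The C/D core genes ran from -0.82 to 0.37 there. No gene of these lists was called over the lines, and neither core protein list had a call in any single line. The spliced snoRNA hosts of the SNHG and GAS5 kind, with TAF1D, were all higher (13 of 13, median 0.42). With 1 probe per gene, 7 were called higher in BT549, 1 in MDA-MB-231 and none in the other lines. With all 19 tested probes of these genes, 11 were called higher in BT549, 2 in MDA-MB-231 and 2 in SUM149. Of all tested probes, 4.53%, 2.80% and 3.90% were called higher in these 3 lines.

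RNAs that resemble snoRNAs in lacking poly(A) were read on the same arrays. Of 20 genes of other short RNAs (spliceosomal, Y, vault, 7SK, 7SL, RMRP), 15 were higher, with a median of 0.34, close to that of the snoRNAs. Their medians in the replicate pairs were highest where those of the snoRNAs were, at 0.71 in SUM149 B and 0.59 in BT549 B. The RN7SK probes disagreed, at 1.71 (SE 0.55) and 0.32 (SE 0.26), and RMRP, the RNA of RNase MRP, changed by 0.39. Of 35 replication-dependent histone genes 22 were higher, with a median of 0.13 over the lines, but 1.21 in BT549, where 20 were called higher and 2 lower, and -0.48 in MDA-MB-157. The level of RNAs without poly(A) in a labelled sample also depends on how the amplification treats them, and its part in the snoRNA values was not tested.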

How the data were processed

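Gene expression was measured on Illumina beadchips in 20 samples, with 2 arrays for each of 10 groups. The authors extracted signals with BeadStudio. The deposited table holds the average bead signal, an intensity that is neither normalised nor corrected for background, with the detection p-value that the authors' software computed from negative control probes. A second deposited table holds quantile-normalised intensity values of the authors and served as an alternative. Probes were named from the platform annotation, whose version differs from the array version named in the methods.

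The bead signals went through limma's nec function, a normexp background correction informed by detection p-values (offset 16), then quantile normalisation and log2 (limma 3.58.1, R 4.3.3). Probes detected at p under 0.05 on at least 10 arrays were tested, with Benjamini-Hochberg adjustment over all of them at 0.1. The test over the 5 lines used the mean of A and B per line and condition with line as a block. The single lines were tested in 1 fit of 10 groups, at more than 2-fold as well. Differences between a member and its host were tested by an exact sign-flip permutation test over lines, for SNORD48 and SNORD14D only. The tests were checked on simulated data. The precision is limited by the number of arrays, which have no counting depth. The labels do not say how far the replicates were cultured apart, beyond calling them independent.

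As the methods describe the second set as an independent preparation of the 5 lines, arrays of 1 line with the same letter were taken as pairs. Deviations of the pairs from their group means correlated, across tested probes, at 0.30 in MDA-MB-157, 0.23 in MDA-MB-468, 0.15 in SUM149, 0.06 in BT549 and 0.04 in MDA-MB-231. Across the 151 tested members alone, the correlations in the same order were 0.47, 0.44, 0.15, 0.03 and 0.09. The points are probes and so not independent.

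Hosts were genes whose span contains the member in the RefSeq table (GRCh38.p14), or were set by hand from general knowledge. Strand, which had been planned as a criterion, was not used, as the table gives none for these genes. Of a host's or list gene's several probes the brightest was taken. Members named in the text were SNORD48, SNORD14D, those called in a test (up to 12 by adjusted p), the 6 highest and 6 lowest changes and those with their own promoter. The 9 separated in all lines, the members of shared hosts, those called in 3 lines and the members with hairpins were named after their values were seen. Members and gene lists were chosen with earlier results of these data known. The members of 1 host gene are not described by host here.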

Additional observations from a re-analysis of the deposited data

Results flagged for a closer look

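A response that differed between lines by the F test was found for 55 members (36.4%, against 41.1% of all tested probes), a share below the background. For the 12 with the lowest adjusted p, the highest line change exceeded the lowest by 2.89 for SNORA28, 2.85 for SNORD139, 2.39 for SNORA77, 1.98 for SNORA25, 1.98 for SNORD59A, 1.91 for SNORD100, 1.76 for SNORA8, 1.67 for SNORA61, 1.64 for SCARNA8, 1.55 for SNORA17A, 1.42 for SNORD68 and 1.18 for SNORA57, on the log2 scale. SCARNA8 was higher in BT549 (1.13) and SUM149 (1.24), and changed by -0.34, -0.40 and -0.35 in MDA-MB-231, MDA-MB-157 and MDA-MB-468.

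In 3 of 45 named members with 5 line changes, 1 line lay far from the other 4. These were SNORA33 in BT549 (2.28), SNORD100 in BT549 (2.50) and SNORA3A in SUM149 (0.67). Chance sets about 1 in 20 such groups apart when they are not chosen by their values. The named members were chosen largely by their calls and changes, so that rate is no yardstick for them. SNORA33 and SNORD100 share the host RPS12.

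Of the members detected too seldom to be tested, 9 were detected on WHF arrays only and on no un-stimulated array. They were SNORA53 (4 arrays), SNORA20, SNORD103C, SNORD24, SNORD53 and SNORD58A (3 arrays each), and SNORA47, SNORA50A and SNORA71D (2 arrays each). SNORD113-1 was detected on 2 un-stimulated arrays only. The share of all probes detected in only one condition was not counted, so these members are listed as a description.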

How the results depend on the processing

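The number of tested members with a higher mean over the lines, 136 in the values above, ranged from 126 to 140 when replicate set A or B was left out, and was within 1.5 times of it under all 14 alternatives (chosen after seeing the data). The difference of the C/D and H/ACA medians, 0.035, was 0.021 and 0.076 without set A or B, ran from 0.012 to 0.074 under the others, except that it was -0.0025 without MDA-MB-231, so neither box can be called the higher. No member was called over the lines under 13 of 14 alternatives, and with replicate pairs as a block 70 were. The block changed no count of calls in a line by over 1.5 times. With the block, SNORD48 (adjusted p = 0.0123) and SNORD14D (adjusted p = 0.0195) passed the threshold. That model counts the replicates of a line as separate units, so these values do not stand for a result over lines. The mean of SNORD48 minus the dimmer SNHG32 probe reversed, to -0.042, without MDA-MB-231. The 57 calls in BT549 (56 higher, 1 lower) became 29 both on the authors' intensities and without background correction, and ranged from 43 to 62 with 1 array left out. The 34 calls in SUM149 became 17 under either of these and 20 with median scaling, and ranged from 7 to 63 with 1 array left out. The 2 calls in MDA-MB-468 became 0 under either of these and with an offset of 50, 5 with median scaling, and 1 to 3 with 1 array left out. The 21 calls in MDA-MB-231 ranged from 16 to 29, those in MDA-MB-157 stayed at 0, the 55 responses that differed between lines ranged from 40 to 77, and the 118 un-stimulated differences from 101 to 118, against 55 and 66 within a chip. The cause of these shifts was not tested. Signal over background limits the dimmer members, of which 53 tested ones were detected on 10 to 19 arrays only.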
